A study of Mus musculus with 40 samples.

Results

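Cerebellar RNA of 5 samples from SCA6 84Q/+ mice was compared with that of 5 samples from wild-type (WT) mice at 19 months, the oldest of 4 ages in the study. In the SCA6 84Q/+ mice, labelled as heterozygotes (HET), a very long CAG tract has been placed in Cacna1a on 1 chromosome, and the other copy is normal. The WT mice carry none, and the labels name no treatment for either genotype and no background strain. A repeat in the endogenous gene is expressed wherever Cacna1a is, and the RNA came from whole cerebellum, so the values are averages over all of its cells. Fewer cells of a type and less RNA per cell cannot be told apart in such samples. Each library is named by its genotype and sample number, from WT 1 to WT 5 and from SCA6 1 to SCA6 5. The labels do not say whether the 5 samples of a group came from separate mice, so p-values measure the spread between these samples. The transcripts compared were those with a CPM (library-size scaled count) of at least 1 in every library of at least 1 genotype, which left 13272 of 21967 genes. Of these, 13073 passed in both genotypes, 126 passed only through SCA6 84Q/+ and 73 only through WT. At the edge of this filter, RP23-303F24.3 passed with a lowest SCA6 84Q/+ value of 1.00 CPM, whereas Gmfg and Zc3h12a stayed out with a lowest WT value of 0.994 CPM.

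Cacna1a encodes the pore-forming subunit of Cav2.1, the P/Q-type calcium channel of presynaptic terminals and of the Purkinje neuron, the output neuron of the cerebellar cortex. The CAG repeat codes for glutamine, and a longer repeat adds a stretch of this amino acid to the cytoplasmic tail of the channel. Membrane proteins such as Cav2.1 are folded in the endoplasmic reticulum (ER). When unfolded protein builds up there, the sensors IRE1, PERK and ATF6 start the unfolded protein response (UPR), in which spliced XBP1, ATF4 and cleaved ATF6 drive genes of chaperones, protein disulfide isomerases and amino acid supply.

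Transcripts of the cerebellum's own neurons were abundant in all 10 libraries. The summed level of 28 Purkinje cell markers was between 12809 and 15976 CPM, and that of 16 granule cell markers between 6980 and 8032 CPM. Library totals ran from 38782918 counts in WT 1 to 62779818 in WT 3, and mitochondrial transcripts took 4.27% to 4.89% of the counts. Y-linked transcripts were present in all 5 WT libraries and in SCA6 1, 3 and 4, and near 0 in SCA6 2 and 5, so the genotypes were not matched in this respect. Part of every library ID is a number, called the ID number here, which the sources used here do not explain. It was 9, 10, 10, 12 and 12 in WT 1 to 5 and 9, 9, 12, 12 and 14 in SCA6 1 to 5. The first principal component held 34.2% of the variance over all genes tested. ID number accounted for 89.9% of this component and genotype for 7.99%. ID number has more levels than genotype, and ID numbers 10 and 14 each hold only 1 genotype. The 2 shares therefore cannot be compared directly.

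Few transcripts differed between the genotypes at 19 months, and those that passed the test lay on chromosome 8, which carries Cacna1a. Calls required an absolute log2 fold change of at least 0.3 and an adjusted p no higher than 0.05. By edgeR's quasi-likelihood test 3 of 13272 genes (0.0226%) were called, of which Comp was higher (0.00753% of the genes) and Mri1 and Il15 were lower (0.0151%) in SCA6 84Q/+ cerebella. DESeq2 called 9 genes (0.0678%), 4 of them higher (0.0301%) and 5 lower (0.0377%), and all 9 are on chromosome 8. These were Comp, Mri1 and Il15 with Abcc12, Hmgb2, Scoc, Zfp868, Zfp963 and Sfrp1. At an unadjusted p under 0.05 edgeR listed 533 genes (4.02%), 330 higher (2.49%) and 203 lower (1.53%).

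**Figure D1:**
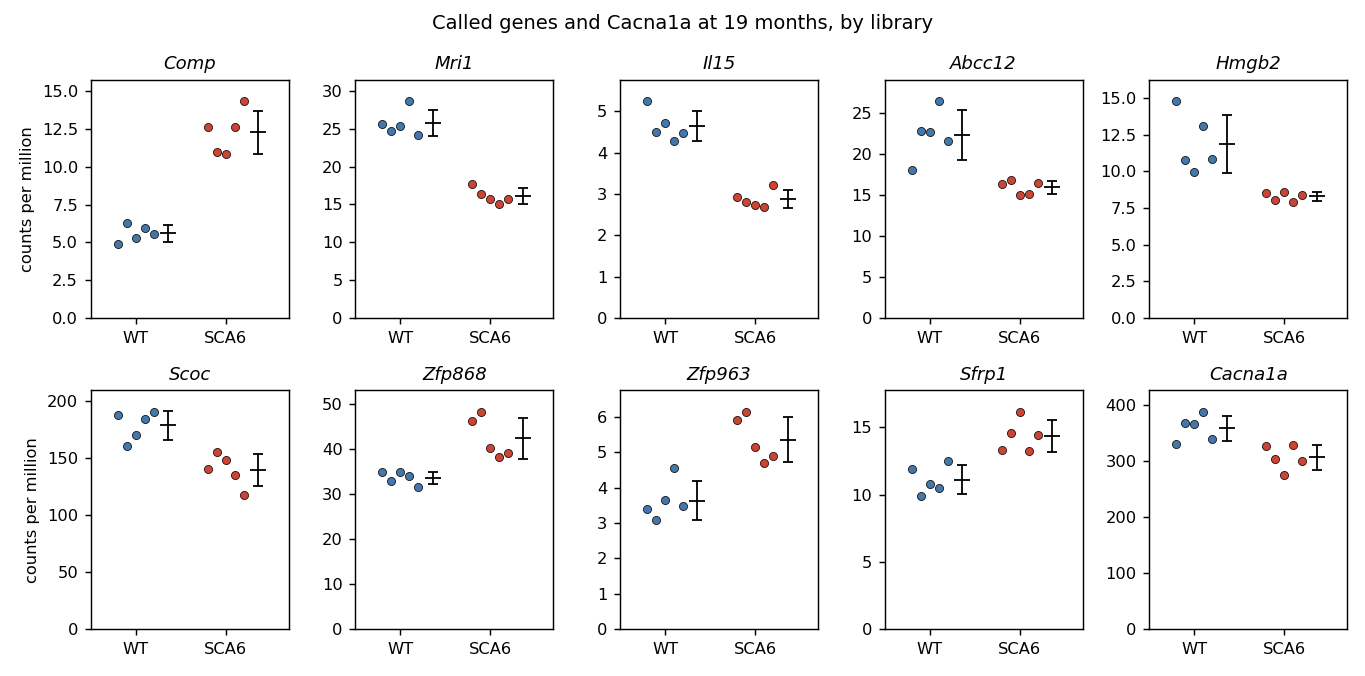
Level of the 9 genes called by DESeq2 and of Cacna1a in each 19-month library, in CPM (vertical axes from 0), with WT in blue and SCA6 84Q/+ in red; bars show mean ± SD over 5 libraries. The libraries of the 2 genotypes do not overlap in any of the 10 panels, and Comp has the largest log2 fold change of the 10 genes, 1.13. The 9 genes were chosen by a test on these same libraries, and 130 of all 13272 genes tested (0.98%) did not overlap.

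Comp encodes cartilage oligomeric matrix protein, a secreted protein of the extracellular matrix. It was at 4.88, 6.31, 5.26, 5.97 and 5.53 CPM in WT 1 to 5 and at 12.6, 10.99, 10.8, 12.6 and 14.3 CPM in SCA6 1 to 5. The lowest SCA6 84Q/+ library was thus well above the highest WT library. Means were 5.59 ± 0.567 CPM in WT against 12.3 ± 1.42 CPM in SCA6 84Q/+ cerebella (SD, n = 5 each). The log2 fold change was 1.13 (standard error 0.10, adjusted p = 0.00074 by edgeR). The gene lies on chromosome 8 from 70373558 to 70382066 in GRCm38 (mm10), at a position −14.01 Mb relative to Cacna1a.

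Mri1 encodes methylthioribose-1-phosphate isomerase, an enzyme of the methionine salvage pathway. Its level was 25.6, 24.7, 25.4, 28.6 and 24.2 CPM in WT 1 to 5 and 17.7, 16.4, 15.7, 15.04 and 15.7 CPM in SCA6 1 to 5. No SCA6 84Q/+ library came near the WT range. Its log2 fold change was −0.67 (standard error 0.064, adjusted p = 0.00077 by edgeR). Mri1 (chromosome 8, 84249906 to 84257326) lies at −0.131 Mb relative to Cacna1a.

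Il15 encodes interleukin 15, a cytokine that supports natural killer and T cells. It was a low transcript, at 5.24, 4.496, 4.73, 4.27 and 4.48 CPM in WT 1 to 5 and at 2.92, 2.82, 2.75, 2.70 and 3.23 CPM in SCA6 1 to 5. The groups did not overlap, and the WT libraries were all above 4 CPM. The log2 fold change was −0.69 (standard error 0.097, adjusted p = 0.041 by edgeR). Il15 (chromosome 8, 82331632 to 82403222) stood just inside the threshold, and the gene next in order, Chd9, was at an adjusted p of 0.17. With any 1 of the 10 libraries left out, WT 1 to 5 and SCA6 1 to 5 alike, edgeR no longer called Il15, while its log2 fold change stayed between −0.73 and −0.64. Comp and Mri1 were called in all of these fits.

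The differences of the 3 genes were also taken within the ID numbers that hold both genotypes. Their signs could not change there, because the CPM ranges of the genotypes did not overlap, so only the sizes are informative. ID number 9 held 1 WT and 2 SCA6 84Q/+ libraries. The log2 differences there were 1.26 for Comp, −0.58 for Mri1 and −0.86 for Il15. In ID number 12, with 2 libraries of each genotype, they were 1.02, −0.77 and −0.68. When the fit held only the libraries with Y-linked transcripts, 5 WT and 3 SCA6 84Q/+, Comp kept a log2 fold change of 1.102 and Mri1 of −0.67 and both were called. Il15 was at −0.73 in that fit and was not called (adjusted p = 0.26 by edgeR), nor was it with ID number as a block (−0.76, adjusted p = 0.072) or with Y-linked transcripts as a covariate (−0.73, adjusted p = 0.17). No WT library lacked Y-linked transcripts, so the covariate fit in effect compared the same 5 WT and 3 SCA6 84Q/+ libraries. ID number 10 held only WT and ID number 14 only SCA6 84Q/+ libraries. The block therefore compared the genotypes only within ID numbers 9 and 12.

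Of the 6 further genes called by DESeq2, 3 were lower. Abcc12, an ATP-binding cassette transporter gene 1.84 Mb from Cacna1a, was at 22.3 ± 3.01 CPM in WT against 15.96 ± 0.828 CPM in SCA6 84Q/+ cerebella (SD, n = 5 each). Its log2 fold change was −0.49, with an adjusted p of 0.00034 by DESeq2 and 0.25 by edgeR. Within ID number 9 the difference was −0.12 and within ID number 12 it was −0.66, since WT 1 was the lowest WT library. Without WT 1, edgeR called Abcc12 at −0.55 (adjusted p = 0.027). Hmgb2, a chromatin protein of the high mobility group, was at 11.9 ± 1.99 and 8.29 ± 0.307 CPM (SD, n = 5 each), with a log2 fold change of −0.51 (adjusted p = 0.0055 by DESeq2). Its WT libraries were spread from 9.94 to 14.8 CPM, and the SCA6 84Q/+ libraries from 7.88 to 8.62 CPM. Scoc, a short coiled-coil protein of the Golgi, was at 187, 161, 170, 184 and 190 CPM in WT 1 to 5 and at 140, 155, 148, 135 and 117 CPM in SCA6 1 to 5. The lowest WT library and the highest SCA6 84Q/+ library were close. The log2 fold change of Scoc was −0.36, with an adjusted p of 0.0055 by DESeq2 and 0.58 by edgeR.

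The other 3 were higher. Zfp868 and Zfp963, a pair of zinc finger genes at −14.76 and −14.64 Mb relative to Cacna1a, had log2 fold changes of 0.33 and 0.56 (adjusted p = 0.015 and 0.036 by DESeq2). Zfp963 was at 3.40, 3.07, 3.66, 4.55 and 3.48 CPM in WT 1 to 5 and at 5.91, 6.14, 5.16, 4.69 and 4.89 CPM in SCA6 1 to 5. WT 4 and SCA6 4 stood next to each other across the gap. Zinc finger genes in such clusters resemble one another in sequence, and how the counting divided reads between them is not known. Sfrp1, a secreted antagonist of Wnt ligands, lies at −60.94 Mb relative to Cacna1a. It was at 11.1 ± 1.05 CPM in WT against 14.4 ± 1.17 CPM in SCA6 84Q/+ cerebella (SD, n = 5 each), with a log2 fold change of 0.37 (adjusted p = 0.036 by DESeq2 and 0.61 by edgeR). In addition, 3 genes had an adjusted p under the threshold by DESeq2 but a log2 fold change under 0.3. Chd9, a chromatin remodeller gene 6.188 Mb from Cacna1a, was at −0.27 (adjusted p = 5.3e-06), and Rabac1, a Rab acceptor gene on chromosome 7, was at −0.23 (adjusted p = 0.015). Hapln4, a link protein of the matrix around neurons, was at 0.30 by both tools, just outside the minimum by DESeq2 (adjusted p = 0.036).

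Cacna1a itself was not called. Its level was 331, 368, 365, 387 and 340 CPM in WT 1 to 5 and 326, 303, 275, 329 and 300 CPM in SCA6 1 to 5. WT 1 was only just above SCA6 4, and the groups did not overlap. The means were 358 ± 22.7 and 306 ± 22.2 CPM (SD, n = 5 each). Its log2 fold change was −0.22 (standard error 0.061), with an adjusted p of 0.77 by edgeR and 0.15 by DESeq2. Within ID number 9 it was −0.07 and within ID number 12 it was −0.27. These counts do not separate the allele with the expanded repeat from the normal one, so the level does not check the knock-in.

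Around Cacna1a (chromosome 8, 84388440 to 84640246), the share of genes with an unadjusted p under 0.05 by edgeR was larger than elsewhere. Within 5 Mb this was 18.1% of 83 genes, 2 of them higher and 13 lower in SCA6 84Q/+ cerebella. From 5 to 15 Mb it was 20.4% of 152 genes, 15 higher and 16 lower. The share was 6.29% of 159 genes from 15 to 30 Mb and 3.94% of 254 genes farther away on chromosome 8, beside 3.72% of 12146 genes on other chromosomes. Both directions were therefore found around Cacna1a, with lower genes the more frequent within 5 Mb. Genes that lie side by side are not independent of each other, and no test was made of these shares. When Y-linked transcripts entered the fit as a covariate, edgeR gave an unadjusted p under 0.05 for 10.8% of the 83 genes within 5 Mb, beside 271 of all 13272 genes. Without the covariate these were 18.1% of the 83 genes and 533 of all 13272 genes. The covariate in effect takes SCA6 2 and 5 out of the genotype comparison, so fewer libraries inform it.

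**Figure D2:**
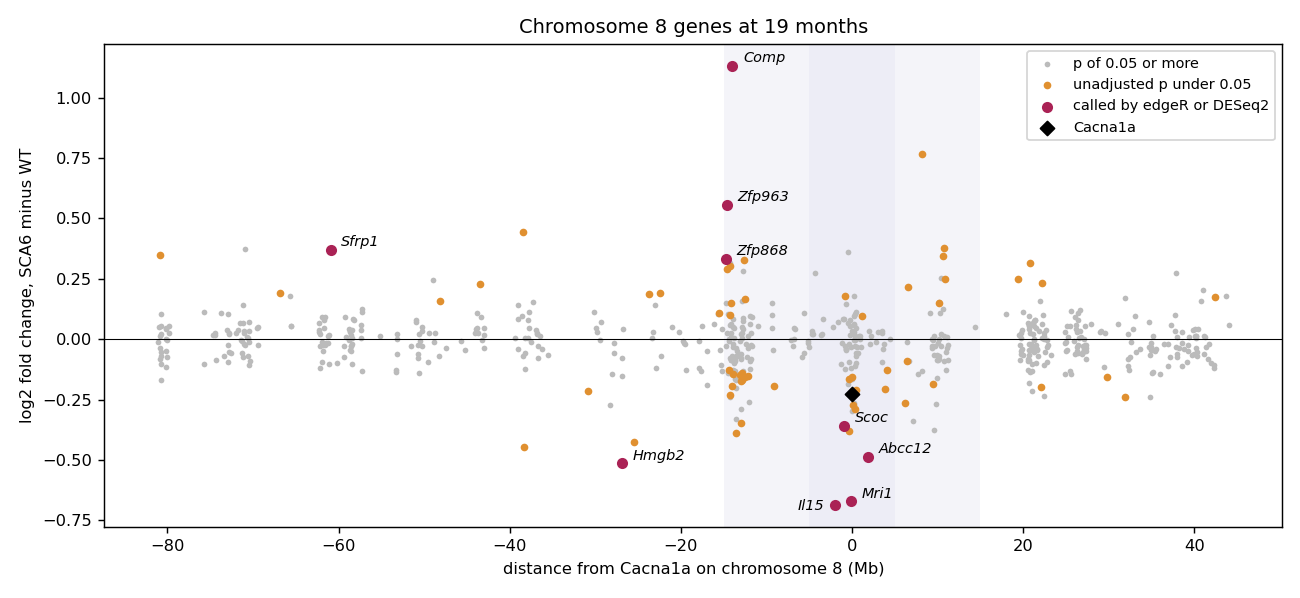
Log2 fold change at 19 months (vertical axis, SCA6 84Q/+ minus WT) of the 648 chromosome 8 genes tested, by distance from Cacna1a in Mb (horizontal axis), with the bands of 5 and 15 Mb shaded. Orange points have an unadjusted p under 0.05, the named points were called by edgeR or DESeq2, and 7 of these 9 lie inside the shaded bands.

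Of the 83 genes within 5 Mb, 9 had CPM ranges that did not overlap between genotypes, 7 lower and 2 higher, beside 130 of all 13272 genes tested (0.98%). The lower ones were Cacna1a, Mri1, Il15, Abcc12 and Scoc with Dand5 and Cyld. Dand5, an antagonist of TGF-beta family ligands 0.175 Mb from Cacna1a, was at 7.95 ± 0.506 CPM in WT against 6.58 ± 0.496 CPM in SCA6 84Q/+ cerebella (SD, n = 5 each). Cyld, a deubiquitinase that restrains NF-kB signalling, was at 167 ± 2.92 and 153 ± 7.17 CPM (SD, n = 5 each). The 2 higher genes were Tecr, an enzyme of very long chain fatty acid synthesis, and Phkb, a subunit of phosphorylase kinase. Tecr had a log2 fold change of 0.18 and Phkb of 0.10. None of Dand5, Cyld, Tecr and Phkb was called (adjusted p of 0.985 for Dand5 and 1.00 for the other 3 by edgeR). A second group of genes lay about 14 Mb away, where Comp, Zfp868, Zfp963, Hapln4 and Rfxank stood among the smallest p-values. Rfxank, a subunit of the factor that drives MHC class II genes, was at 20.2 ± 0.627 CPM in WT against 17.2 ± 0.865 CPM in SCA6 84Q/+ cerebella (SD, n = 5 each), and its log2 fold change was −0.23 (adjusted p = 0.70 by edgeR).

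The 30 libraries of 3, 6 and 12 months, 5 per genotype and age, share no library with those of 19 months, so they were used to see which differences were present earlier. When these 3 ages were fitted together, each with its own level, edgeR called 8 of the 13272 genes (0.0603%), 4 higher and 4 lower, all on chromosome 8. Comp (log2 fold change 1.22), Mri1 (−0.51) and Il15 (−0.57) were among them, with adjusted p-values of 3.8e-07, 0.00011 and 0.00043 by edgeR. The others were Abcc12, Zfp868, Zfp963, Ocel1 and Usb1. Ocel1 (−0.35) and Usb1, an RNA exonuclease that trims U6 snRNA (0.34), had nearly the same log2 fold changes at 19 months as earlier (−0.37 and 0.34), although neither was called at 19 months. Ocel1 and Usb1 were named after their values were seen.

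**Figure D3:**
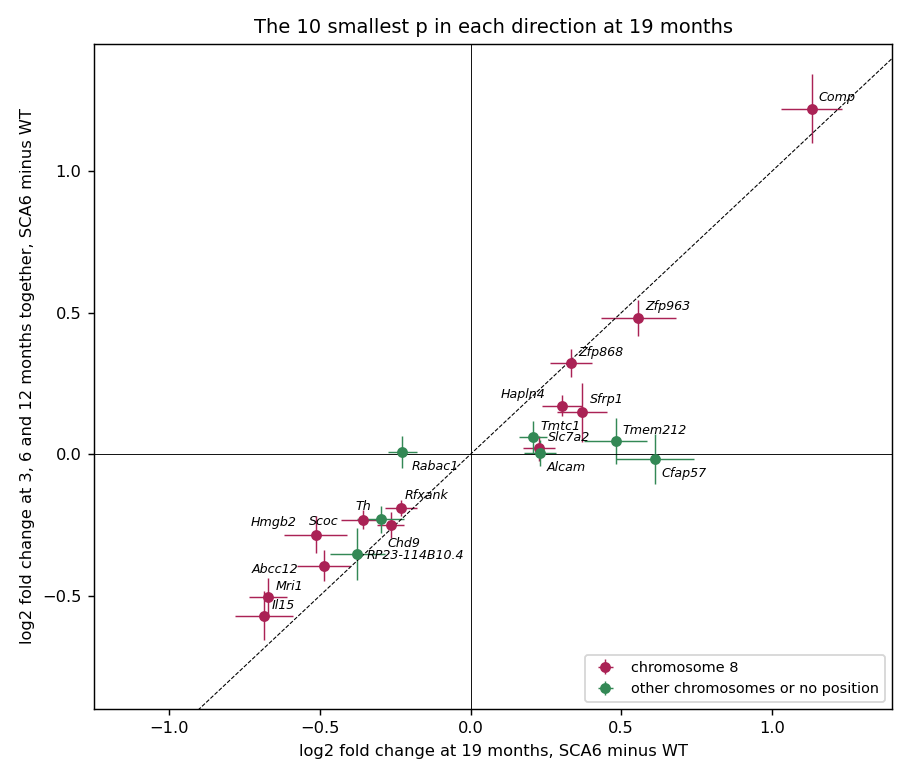
Log2 fold change (SCA6 84Q/+ minus WT) at 19 months (horizontal axis) and over 3, 6 and 12 months together (vertical axis) of the 10 genes with the smallest p in each direction at 19 months; bars are standard errors and the dashed line marks equal values. The 13 chromosome 8 genes have the same sign at both, and Slc7a2 of chromosome 8 lies near 0 on the vertical axis, as do Cfap57, Tmem212, Alcam and Rabac1.

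The 10 genes with the smallest p in each direction at 19 months comprised 13 on chromosome 8 and 7 that were on other chromosomes or had no position. All 13 chromosome 8 genes had the same sign in the younger mice, and 9 of them had an adjusted p of 0.05 or less there by edgeR. Of the other 7, 5 had the same sign and 1, Th, had an adjusted p of 0.05 or less. Over all genes tested, the same sign was seen for 52.7%. Of the genes with an unadjusted p under 0.01 at 19 months, 24 of 25 on chromosome 8 and 58 of 86 others had the same sign in the younger mice. By age, this was 19, 25 and 22 of the 25 and 47, 72 and 22 of the 86 at 3, 6 and 12 months. Over all 13272 genes it was 6587, 7700 and 6083. The median absolute log2 fold change of these 86 was 0.33 at 19 months and 0.046 earlier, whereas that of the 25 was 0.33 and 0.23. Genes were chosen on the 19-month values, so the sizes at 19 months are a description and no independent measure.

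In 2 libraries labelled SCA6, replicates 2 and 3 of 3 months, Comp was at 3.63 and 3.69 CPM, inside the WT range of 2.81 to 3.83 CPM at that age. The other 3 SCA6 84Q/+ libraries of 3 months were between 7.76 and 11.5 CPM. Mri1 was at 27.5 and 24.4 CPM in the same 2 libraries, beside 22.7 to 25.9 CPM in WT. These levels are scaled over all 40 libraries. Without these 2 libraries, edgeR called 9 genes over 3, 6 and 12 months. The log2 fold changes were then 1.34 for Comp, −0.60 for Mri1 and −0.66 for Il15. Then 11 of the 13 chromosome 8 genes had an adjusted p of 0.05 or less, Hapln4 (0.19) and Hmgb2 (−0.31) being the 2 added, and 1 of the other 7. The 2 libraries were picked by their levels of Comp and Mri1, which are among the 13, so these counts and fold changes are no independent check.

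At 6 and 12 months the order of the genotypes was as at 19 months for Comp, Mri1 and Il15. Comp was at 4.86 ± 0.611 and 11.6 ± 2.33 CPM in WT and SCA6 84Q/+ cerebella at 6 months, and at 4.62 ± 0.648 and 10.8 ± 1.19 CPM at 12 months (SD, n = 5 each). Mri1 was at 26.3 ± 1.93 and 15.6 ± 1.87 CPM at 6 months (SD, n = 5 each). At 12 months Mri1 was at 23.2 ± 1.75 and 15.7 ± 0.977 CPM (SD, n = 5 each). Il15 was at 3.57 ± 0.411 and 2.09 ± 0.346 CPM at 6 months, and at 4.21 ± 0.823 and 2.96 ± 0.379 CPM at 12 months (SD, n = 5 each). The ranges of Il15 overlapped at 12 months, and those of Comp and Mri1 at neither age. Hmgb2 was nearer to WT at these ages, at 9.34 ± 1.00 and 8.18 ± 1.603 CPM at 12 months (SD, n = 5 each), and its ranges overlapped there. Sfrp1 had log2 fold changes of 0.11 at 3 months, 0.40 at 6 months and −0.06 at 12 months.

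Whether the genotype difference at 19 months departed from that of the 3 earlier ages was tested as a difference of differences in 1 fit of all 8 groups. No gene was called by edgeR or by DESeq2, and at an unadjusted p under 0.05 edgeR listed 334 genes (2.52%). For Comp the difference was −0.09 (standard error 0.22), for Mri1 −0.17 (standard error 0.11) and for Il15 −0.11 (standard error 0.16). These 3 values include the 2 libraries of 3 months that had Comp and Mri1 at WT levels. The smallest p was that of Cfap57, a gene of motile cilia. Its log2 fold change was 0.61 at 19 months and −0.02 earlier, a difference of 0.63 (standard error 0.16, adjusted p = 1.00 by edgeR). Cfap57 was at 0.844 to 0.999 CPM in WT against 1.14 to 1.69 CPM in SCA6 84Q/+ libraries, so it passed the filter only through the genotype where it was higher.

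Outside chromosome 8, no gene was called at 19 months, and 292 of 12146 genes were higher and 160 lower at an unadjusted p under 0.05 by edgeR. Tmem212, a membrane protein gene of ciliated ependymal cells on chromosome 3, was at 3.14, 3.09, 2.84, 3.46 and 3.55 CPM in WT 1 to 5 and at 4.35, 4.48, 3.88, 4.82 and 4.93 CPM in SCA6 1 to 5. All SCA6 84Q/+ libraries were above all WT libraries. Its log2 fold change was 0.48 (adjusted p = 0.60 by edgeR and 0.054 by DESeq2). In the younger mice it was −0.04 at 3 months, 0.35 at 6 months and −0.16 at 12 months, and 0.05 over the 3 ages. Rabac1 was at 55.7 ± 2.32 CPM in WT against 47.6 ± 2.19 CPM in SCA6 84Q/+ cerebella (SD, n = 5 each), and its log2 fold change in the younger mice was 0.01. Alcam, a cell adhesion molecule gene, had a log2 fold change of 0.23, and Tmtc1, which encodes an ER mannosyltransferase for cadherins, one of 0.21. Neither was called (adjusted p = 0.65 for each by edgeR).

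Th, which encodes tyrosine hydroxylase, the rate-limiting enzyme of catecholamine synthesis, is also transcribed in some Purkinje neurons. At 19 months it was at 13.1, 13.6, 12.3, 12.4 and 10.7 CPM in WT 1 to 5 and at 10.8, 9.59, 10.1, 10.48 and 9.51 CPM in SCA6 1 to 5. WT 5 lay among the SCA6 84Q/+ libraries. The log2 fold change was −0.30 (adjusted p = 0.77 by edgeR), and in the younger mice it was −0.23 (adjusted p = 0.025 by edgeR). Th was thus the gene outside chromosome 8 among the 20 with a difference in the younger mice, though under the minimum change for a call. RP23-114B10.4, a transcript without a position in the annotations used, had log2 fold changes of −0.38 at 19 months and −0.35 earlier.

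No member of 27 gene lists was called by edgeR or DESeq2, and the lists are therefore described by their counts and medians. Over all genes tested, 49.3% had a log2 fold change above 0, the median was −0.0013 and 4.02% had an unadjusted p under 0.05 by edgeR.

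Transcripts of the UPR differed little at 19 months. Of 10 ER stress sensors and UPR transcription factors, 5 were above 0 and 5 below, with a median of −0.01. Xbp1, the substrate of IRE1, was at 85.8 ± 12.4 CPM in WT against 97.1 ± 8.79 CPM in SCA6 84Q/+ cerebella (SD, n = 5 each), and its log2 fold change was 0.18. Gene counts do not separate its spliced form. Atf6 was at 0.04 and Eif2ak3, which encodes PERK, at −0.05. Of 22 ER chaperones and calcium buffers, 17 were above 0, with a median of 0.07, and none had an unadjusted p under 0.05 by edgeR. Hspa5, the main ER chaperone BiP, was at 265, 322, 248, 201 and 252 CPM in WT 1 to 5 and at 250, 280, 317, 297 and 322 CPM in SCA6 1 to 5. The groups overlapped, with WT 2 level with the highest SCA6 84Q/+ library. The log2 fold change of Hspa5 was 0.19 (standard error 0.11), that of Hyou1 0.17 (standard error 0.098), that of Hsp90b1 0.17 (standard error 0.086) and that of Calr 0.18 (standard error 0.11). Dnajb9, a BiP co-chaperone, was at −0.11 (standard error 0.053).

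Of 13 protein disulfide isomerases and ER oxidases, 9 were above 0, with a median of 0.03. Pdia4 (0.21) and P4hb (0.10) had an unadjusted p under 0.05 by edgeR, as did Erp29 (−0.10), whose ranges did not overlap. Of 19 genes of ER-associated degradation 11 were above 0, and of 24 of the translocon and secretory entry 13 were above 0. Their medians were 0.0077 and 0.0059. Sec61g, a small subunit of the translocon, was at −0.20 and the ubiquitin-conjugating enzyme gene Ube2j2 at −0.10.

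The summed level of the 22 ER chaperones overlapped between genotypes, at 2131 to 2630 CPM in WT against 2346 to 2856 CPM in SCA6 84Q/+ libraries. SCA6 5 was the highest library and WT 4 the lowest. In the 3 SCA6 84Q/+ libraries with Y-linked transcripts the mean log2 level of the list, about the mean of the 10 libraries, was −0.0018, in the 2 with these transcripts near 0 it was 0.075, and in WT it was −0.029. With Y-linked transcripts as a covariate, the median log2 fold change of the list was 0.04, and it was 0.033 without SCA6 5 and 0.047 without WT 4. Within ID number 9 the list differed by −0.04 and within ID number 12 by 0.13.

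The ER stress response element, read by ATF6 with NF-Y, joins the letters CCAAT and CCACG across 9 bases. It was searched on both strands of the promoters in RefSeq (GRCm38.p6), from 250 bases before to 50 after each gene's start, and was found for 37 of 27025 genes (0.137%) and for 10 of 78 promoters of the 5 ER lists. The matches in 5 genes of the lists are shown with 5 flanking bases, because these are the ER folding genes whose values are given above or in the next sentences. Capitals mark the fixed letters.
Hspa5: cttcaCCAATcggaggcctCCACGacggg
Hsp90b1: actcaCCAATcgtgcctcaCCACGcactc
Calr: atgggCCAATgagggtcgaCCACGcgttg
Pdia6: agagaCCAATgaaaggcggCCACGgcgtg
Dnajc3: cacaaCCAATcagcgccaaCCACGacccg
They lie, on the plus strand, at chr2:34772020-34772048 for Hspa5, chr10:86705528-86705556 for Hsp90b1, chr8:84847070-84847098 for Calr, chr12:17266486-17266514 for Pdia6 and chr14:118937822-118937850 for Dnajc3. The other 5 genes were Canx, Creld2, Syvn1, Ero1b and Derl3, of which Ero1b and Derl3 were not among the genes tested. Of the 37 genes with the element, 18 were tested, 14 of them above 0, with a median of 0.08. The list members tested (Hspa5, Hsp90b1, Calr, Pdia6, Dnajc3, Canx, Creld2 and Syvn1) are among the 18 and were already counted above. None of the 18 was called or had an unadjusted p under 0.05 by edgeR. Pdia6 was at 0.16 (standard error 0.094) and Dnajc3, the PERK inhibitor p58IPK, at 0.08 (standard error 0.045). Within ID number 9 the log2 differences were 0.00082 for Hspa5, 0.057 for Hsp90b1, −0.07 for Calr, −0.04 for Pdia6 and −0.0096 for Dnajc3. Within ID number 12 they were 0.45, 0.24, 0.37, 0.28 and 0.11 in the same order. Calr lies 0.202 Mb from Cacna1a, and its ranges overlapped between the genotypes.

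Of 30 genes of ATF4 and the integrated stress response, 21 were above 0, with a median of 0.06. The median was 0.012 with Y-linked transcripts as a covariate and 0.017 with ID number as a block, and with 1 library left out it lay between 0.025 (without SCA6 5) and 0.086 (without WT 1). The mean log2 level of the list was −0.026 in the 3 SCA6 84Q/+ libraries with Y-linked transcripts, 0.099 in the 2 others and −0.024 in WT. Slc7a11, the cystine transporter that ATF4 and NRF2 induce, was at 44.9, 51.9, 45.5, 33.9 and 45.8 CPM in WT 1 to 5 and at 64.6, 56.2, 49.1, 59.9 and 57.3 CPM in SCA6 1 to 5. Only SCA6 3 lay below the highest WT library. Its log2 fold change was 0.37 (standard error 0.10, adjusted p = 0.77 by edgeR and 0.15 by DESeq2), and 0.01 in the younger mice. Its promoter holds the letters TGATGNAA of the element that ATF4 complexes bind, shown here with 5 flanking bases and the fixed letters in capitals, beside that of Asns.
Slc7a11: catgaTGATGcAAattct
Asns: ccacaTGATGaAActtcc
The first lies at chr3:50443648-50443665 on the plus strand and the second at chr6:7693220-7693237 on the minus strand (GRCm38.p6). These letters were found, on either strand, for 4.51% of the 27025 promoters and for 10 of 29 of the list. Asns, asparagine synthetase, was at 106 ± 8.73 CPM in WT against 115 ± 4.95 CPM in SCA6 84Q/+ cerebella (SD, n = 5 each), and its log2 fold change was 0.12. Ddit4, an inhibitor of mTORC1 signalling, went the other way, at −0.26 (standard error 0.077, adjusted p = 0.96 by edgeR). Within ID number 12 the list differed by 0.10 and within ID number 9 by −0.10.

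Cytosolic chaperones were near 0. Of 17 genes of the HSP90 machinery 10 were above 0 (median 0.02), and of 29 HSF1 targets and other chaperones 17 (median 0.01), with none at an unadjusted p under 0.05 by edgeR. The log2 fold change of Hsp90aa1 was 0.03 (standard error 0.071), that of Hsp90ab1 0.02 (standard error 0.077), and that of Ahsa1, the activator of the HSP90 ATPase, −0.0072 (standard error 0.077). Hspa8 was at 0.07 and Dnaja1 at 0.02.

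Of 28 ion channels linked to ataxia or Purkinje neuron firing, 17 were above 0, with a median of 0.01. Kcnma1, the BK channel, was at 314 ± 30.6 CPM in WT against 329 ± 23.4 CPM in SCA6 84Q/+ cerebella (SD, n = 5 each). Itpr1, the ER calcium release channel of Purkinje neurons, differed by 0.06 on the log2 scale (standard error 0.091), Kcnn2 by 0.07 (standard error 0.089) and Cacna1g by −0.04 (standard error 0.089). Of 21 subunits and partners of Cav2.1, 7 were above 0, with a median of −0.04. Apart from Cacna1a the list had 1 gene with an unadjusted p under 0.05 by edgeR, Cacnb4, the beta subunit most abundant in the cerebellum. It was at 582 ± 33.4 and 629 ± 17.6 CPM (SD, n = 5 each), and its log2 fold change was 0.11. Of 27 genes of store-operated calcium entry and ER calcium handling 18 were above 0, with a median of 0.03. Stim1, the ER calcium sensor, was at 0.0097 (standard error 0.045), and the channel genes Orai1, Orai2 and Orai3 were at −0.09, −0.09 and 0.08.

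**Figure D4:**
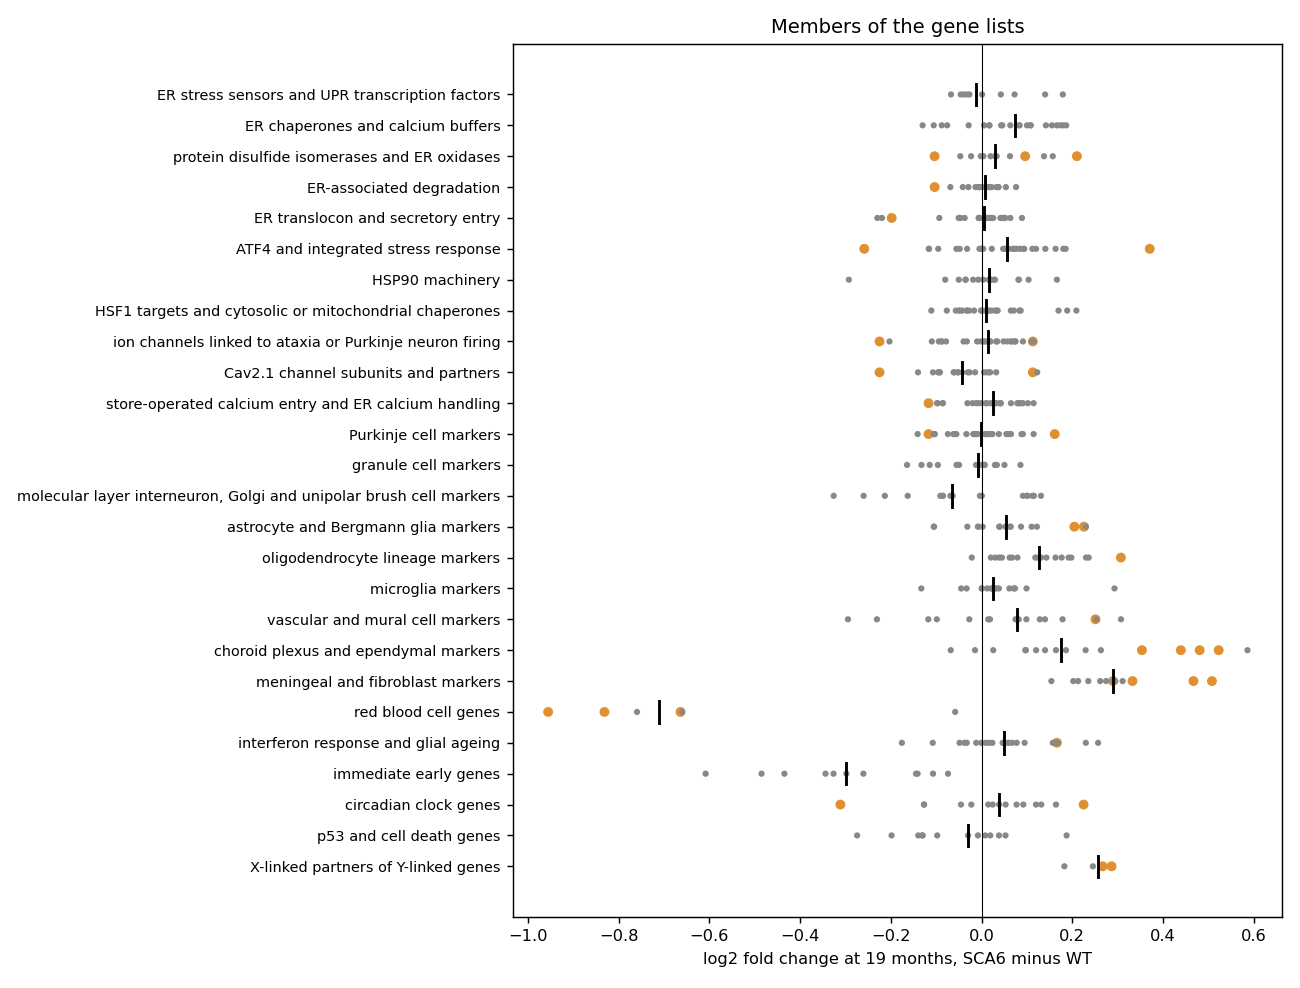
Log2 fold change at 19 months (horizontal axis, SCA6 84Q/+ minus WT) of each member tested of 26 gene lists, leaving out the Y-linked genes; orange points have an unadjusted p under 0.05 and black bars mark medians. All 13 meningeal and fibroblast markers lie above 0, and all 6 red blood cell genes and all 11 immediate early genes below 0.

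Neuronal markers had medians near 0. Of 28 Purkinje cell markers 14 were above 0 and 14 below, with a median of −0.00067. Calb1 was at −0.01 (standard error 0.083), Pcp2 at −0.10 (standard error 0.081), Car8 at 0.04 (standard error 0.11), Pvalb, which interneurons also transcribe, at −0.12 (standard error 0.052) and Foxp2 at 0.16 (standard error 0.072). Of 16 granule cell markers 7 were above 0 (median −0.0071), with Rbfox3 the lowest at −0.16. Of 18 markers of molecular layer interneurons, Golgi and unipolar brush cells 7 were above 0, with a median of −0.06. Of 16 microglia markers 13 were above 0, with a median of 0.03. This median was −0.06 with Y-linked transcripts as a covariate, −0.06 with a block for ID number, −0.03 without WT 4 and −0.01 without SCA6 5, and the list differed by −0.44 within ID number 9 and by 0.18 within ID number 12. The direction for microglia markers was therefore not stable. Of 24 interferon response and glial ageing genes 17 were above 0, with a median of 0.05. Of 17 astrocyte and Bergmann glia markers 12 were above 0 (median 0.05), among them Aqp4, the water channel of astrocyte endfeet, at 0.20, and of 16 vascular and mural markers 11 (median 0.08), among them Cdh5, the endothelial cadherin, at 0.25. Of 15 circadian clock genes 10 were above 0, with Dbp at 0.22 and Npas2 at −0.31, and of 13 p53 and cell death genes 5 were above 0, with a median of −0.03.

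Markers of cells at the surfaces of the cerebellum, and of oligodendrocytes, had higher medians in SCA6 84Q/+ cerebella without any being called. Of 13 meningeal and fibroblast markers all 13 were above 0, with a median of 0.29, and 4 had an unadjusted p under 0.05 by edgeR, namely Col3a1 (0.51), Slc13a4 (0.47), Col1a2 (0.33) and Mgp (0.29). Col1a2, a type I collagen chain, was at 23.99, 22.7, 17.7, 16.3 and 16.5 CPM in WT 1 to 5 and at 24.7, 21.9, 21.6, 23.8 and 30.1 CPM in SCA6 1 to 5. WT 1 and 2 lay among the SCA6 84Q/+ libraries. In the younger mice, with 3 ages fitted together, the median of these 13 genes was −0.05. That of the choroid plexus and ependymal markers was 0.13 and that of the oligodendrocyte markers 0.07. At 3, 6 and 12 months, F5 was at 0.51, 0.30 and −0.33. Kl, the klotho gene, was at 0.50, 0.36 and −0.35, Igfbp2 at 0.49, 0.17 and −0.15 and Tmem212 at −0.04, 0.35 and −0.16. These choroid plexus and ependymal markers were thus below 0 at 12 months. At 19 months, 14 of 16 choroid plexus and ependymal markers were above 0, with a median of 0.18, among them Tmem212, F5 (0.52), Kl (0.44) and Igfbp2 (0.35). Ttr, transthyretin, the most abundant choroid plexus transcript, was at 0.10 (standard error 0.13) and Foxj1, the regulator of motile cilia, at 0.03 (standard error 0.11). Of 20 oligodendrocyte lineage markers 19 were above 0, with a median of 0.13, led by Enpp2 (0.31), which choroid plexus also transcribes, and Ugt8a (0.24), while Mbp was at 0.03. Without WT 4 the median of the choroid plexus and ependymal list was 0.065, and without SCA6 3 that of the oligodendrocyte list was 0.062.

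Red blood cell genes and immediate early genes lay on the other side. All 6 red blood cell genes were below 0, with a median of −0.71 and 3 at an unadjusted p under 0.05 by edgeR. Hbb-bs, an adult beta globin, was at 109, 148, 215, 327 and 82.1 CPM in WT 1 to 5 and at 85.6, 90.2, 107, 66.4 and 147 CPM in SCA6 1 to 5. WT 4 was the highest and WT 5 lay among the SCA6 84Q/+ libraries. Globin genes are near-identical copies, so their separate counts are uncertain. All 11 immediate early genes, which neuronal activity induces within minutes, were below 0, with a median of −0.30 and none at an unadjusted p under 0.05 by edgeR. Fos was at 71.8, 45.7, 53.6, 7.26 and 12.1 CPM in WT 1 to 5 and at 44.1, 42.0, 10.98, 15.5 and 12.2 CPM in SCA6 1 to 5. The high libraries were those of ID numbers 9 and 10, of both genotypes. With ID number as a block, which compares the genotypes only within ID numbers 9 and 12, the median of the 11 genes was −0.09. With 1 library left out of the main fit the median lay between −0.47 (without SCA6 1) and −0.17 (without WT 1). Without WT 4 the median of the red blood cell genes was −0.45.

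Levels of the meningeal list were ordered by ID number as well as by genotype. The mean log2 level of the meningeal list, about the mean of all 10 libraries, was −0.55 and −0.31 in WT 4 and 5 and −0.06 and −0.08 in SCA6 3 and 4, the libraries of ID number 12. In the other 6 libraries it was between −0.04 and 0.43, so the libraries of ID number 12 were the 4 lowest. Within ID number 9 the genotypes differed by 0.23 and within ID number 12 by 0.36. Choroid plexus and ependymal markers differed by 0.08 and 0.30, oligodendrocyte markers by 0.03 and 0.23, red blood cell genes by −0.59 and −0.66 and immediate early genes by −0.33 and 0.05, each within ID numbers 9 and 12 in this order. Summed levels overlapped between genotypes for all 5 lists. That of the meningeal list was 997 to 1321 CPM in WT against 1062 to 1683 CPM in SCA6 84Q/+ libraries, and that of the red blood cell list 124 to 485 and 108 to 238 CPM. The part of tissue composition in the other differences was not tested.

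**Figure D5:**
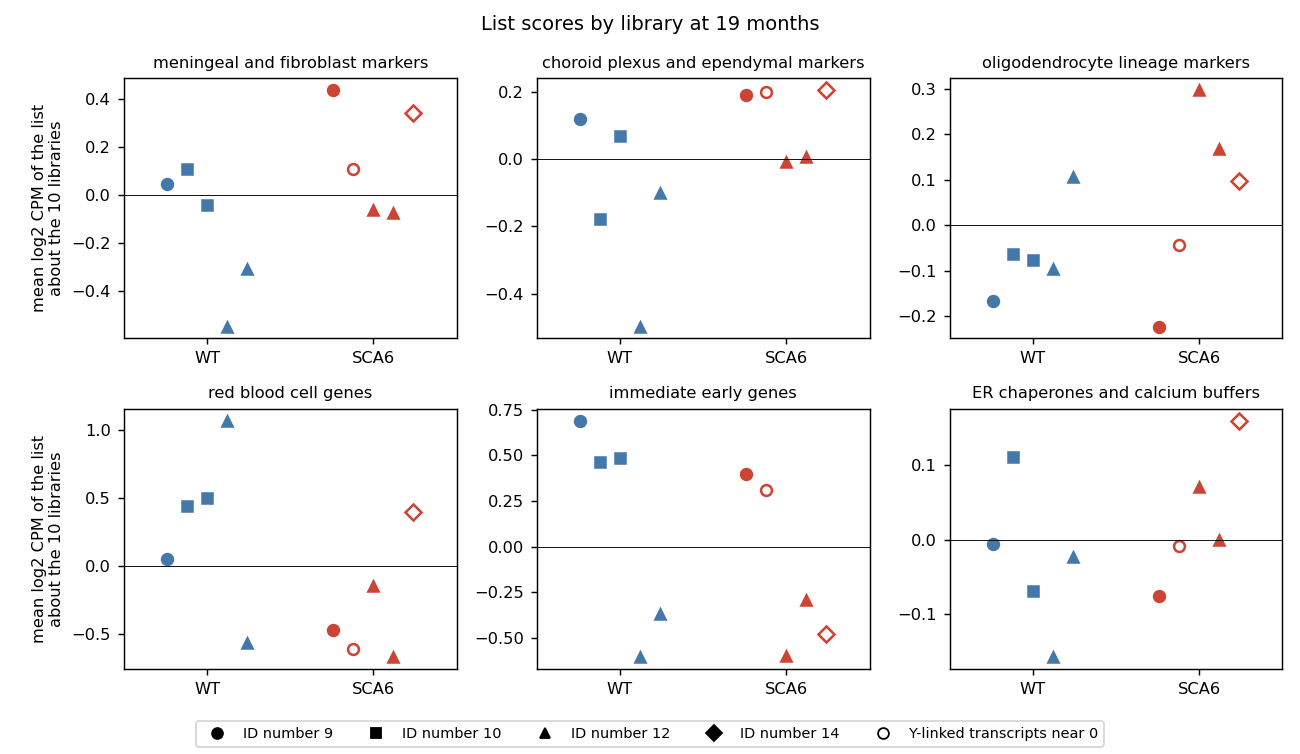
Mean log2 CPM of 6 gene lists in each 19-month library, about the mean of the 10 libraries (vertical axes), by genotype, with the symbol giving the ID number and open symbols the libraries with Y-linked transcripts near 0. Triangles, ID number 12, are the 4 lowest libraries for meningeal markers, and the genotypes overlap in all 6 panels.

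Eif2s3x and Kdm6a, X-linked partners of Y-linked genes, were highest in the libraries with Y-linked transcripts near 0. Ddx3y was at 151 to 158 CPM in WT, at 162, 151 and 153 CPM in SCA6 1, 3 and 4, and at 0.481 and 0.290 CPM in SCA6 2 and 5. Eif2s3x, a translation initiation factor gene that escapes X inactivation, was at 160 and 173 CPM in SCA6 2 and 5 and between 96.5 and 116 CPM in the other 8 libraries. Kdm6a, a histone demethylase gene, was at 129 and 106 CPM in the same 2 libraries and between 74.7 and 91.1 CPM elsewhere. All 4 X-linked partners were above 0, with a median of 0.26, and with Y-linked transcripts as a covariate their median was 0.0058. That covariate in effect left SCA6 2 and 5, the only libraries with Y-linked transcripts near 0, out of the genotype comparison.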

How the data were processed

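Cerebellar polyadenylated RNA had been sequenced by the study as 150-base paired reads. Per the labels, the deposited values are raw counts per gene, made by the authors with FastQC, Trimmomatic, STAR (mm10) and HTSeq. The sources used here do not give the versions, the gene annotation or the strand setting, and antisense and overlapping genes are therefore uncertain. The authors' own fold changes were not used. Groups came from the labels.

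Counts were tested with edgeR 4.0.16 (TMM scaling, quasi-likelihood, Benjamini-Hochberg over all genes tested, R 4.3.3), 5 against 5 libraries, with no covariate. CPM are TMM-scaled. The filter was 1 CPM in every library of a genotype. The thresholds, an adjusted p of 0.05 and a log2 fold change of 0.3, are those of the study's methods. Alternatives were DESeq2 1.42.0, limma 3.58.1 (voom with quality weights), 1 surrogate variable from sva 3.50.0, other scalings and filters, 1 fit of all 8 groups, replicate number, ID number or Y-linked transcripts in the model, and each library left out. The scripts were tested on simulated counts. Library totals were 38782918 to 62779818 counts, and no pair of libraries agreed within sampling noise. Positions came from GENCODE M21 (19577 genes) and RefSeq GRCm38.p6 (307 genes), and 2083 genes had none.

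Genes named were those called by edgeR or DESeq2, the 10 with the smallest p in each direction, those within 5 Mb of Cacna1a without overlap, up to 4 with the smallest p of each list, those the study names for bulk RNA or the 19-month mice, and Y-linked genes with their X-linked partners. Ocel1, Usb1 and further list members (Calb1, Canx, Car8, Foxj1, Mbp, Pcp2, Syvn1 and Ttr) were added after their values were seen. The genes and lists were chosen with earlier results of these data known.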

Additional observations from a re-analysis of the deposited data

Results flagged for a closer look

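Of 342 groups of 5 libraries examined, for levels, list scores and library totals, 19 (5.56%) had 1 library that stood apart from the other 4 by Dixon's criterion (critical value 0.71). Chance alone sets about 1 in 20 groups apart. The library was WT 4 in 5 of them, WT 1 in 4 and WT 2 in 3.

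WT 4 stood apart for Ly6c1, an endothelial surface protein gene (79.04 CPM, the nearest WT library at 41.25), Npas2, a clock gene (5.528 and 4.101 CPM), Mbtps1, the site-1 protease that cleaves ATF6 (136.3 and 119.2 CPM), and Chordc1, an HSP90 co-chaperone (111.5 and 126.4 CPM). It was also apart in the mean log2 level of the p53 and cell death list (0.2291, the nearest at 0.0004314). WT 1 stood apart for Npy, neuropeptide Y (15.04 and 9.572 CPM), Csf1r, the receptor that maintains microglia (52.41 and 42.74 CPM), the microglia list (0.363 and −0.06349) and its total of 38782918 counts, the nearest WT library having 56345496. WT 2 stood apart for Rbfox3, a neuronal splicing factor (323 and 264.7 CPM), Cdh5 (12.75 and 11.29 CPM) and Ahsa1 (132.5 and 111.4 CPM), and WT 5 for Cnksr3 (67.95 and 79.39 CPM).

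Among the SCA6 84Q/+ libraries, SCA6 2 was lowest for Rabac1 (43.75 CPM, the nearest at 47.72) and Erp29 (95.93 and 99.51 CPM). SCA6 5 was apart for Itpr1 (4210 and 3635 CPM) and Hrk, a cell death activator (10.24 and 12.22 CPM). SCA6 4 was apart in the lists of protein disulfide isomerases (−0.03156 and 0.02365) and of Cav2.1 subunits and partners (0.0478 and −0.02168).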

How the results depend on the processing

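Comp and Mri1 were called under all 23 alternatives at 19 months, with adjusted p-values of up to 0.019 and 0.039 (edgeR, DESeq2 or limma), and every called gene with a position lay on chromosome 8. The count of higher genes, 1 in the report, was 4 by DESeq2, 3 without the CPM filter and 2 in 1 fit of all 8 groups. The count of lower genes, 2 in the report, was 5 by DESeq2, 4 in the fit of 8 groups, and 1 with ID number as a block, with Y-linked transcripts as a covariate, or in the libraries with Y-linked transcripts. With the replicate number as a block it was 1, Il15 being lost (adjusted p = 0.56 by edgeR). Numbers did not pair the libraries, since the correlations of same-numbered libraries were 0.213, −0.19, −0.356, 0.276 and −0.164. SCA6 1 to 5 correlated best with WT 3, 3, 5, 5 and 2, none of them with its own number. With 1 library left out the count of lower genes was 1 to 2. The share of genes within 5 Mb of Cacna1a with an unadjusted p under 0.05 moved from 18.1% to 10.8% with the Y-linked covariate and to 10.8% in the libraries with Y-linked transcripts. Over all 13272 genes the count fell as well, from 533 to 271 and 277 in the same 2 fits. The causes were not tested. No called value changed sign. Of the other values of the main comparisons, 145 were taken as unchanged. For a count or share this meant equal to the main value or within 1.5 times of it. For Cacna1a it meant the same sign and no call. Calls in the younger mice numbered 7 to 9, and no gene was called for the difference between ages in any fit. Library totals limit the lowest transcripts, such as Cfap57 near 1 CPM.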
